A study of Mus musculus with 78 samples.

Results

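The genes described here encode the proteins of the cytosolic ribosome, together with their paralogs, in the striatum of C57BL/6J mice given methamphetamine, heroin or saline. They were chosen by gene symbol (Rpl or Rps followed by a digit, and Rplp0, Rplp1 and Rplp2), leaving out the S6 kinases and symbols that end as pseudogenes. The choice gave 64 of the 19057 named genes on the array, on 94 probes. By name, 30 were proteins of the large subunit, 22 were proteins of the small subunit and 3 formed the ribosomal stalk. Another 7 were paralogs (Rpl22l1, Rpl36al, Rpl39l, Rpl3l, Rpl7l1, Rps27l and Rps4l), and 2, Rps19bp1 and Rps23rg1, are not ribosomal proteins but share the symbol pattern. Rps4l was annotated as a transcribed pseudogene.

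Mice received D-methamphetamine, heroin or saline by intraperitoneal injection, 2 times a day for 12 days. The methamphetamine dose was raised to 8 mg/kg, from 2 mg/kg at the start, and the heroin dose to 40 mg/kg, from 10 mg/kg. Striatum was taken on days 1, 3, 6 and 12 of treatment and at the time points labelled days 13, 15, 18 and 24, in withdrawal, with 3 arrays for each drug and day. The file headers number the withdrawal points 1, 3, 6 and 12 instead, and the label days are used here as names. Mice labelled naive (day 0) supplied another 6 arrays, for 78 in all on 13 slides. Age and sex are not given in the sources used here. Replicates are separate samples by label. Nothing says whether each is 1 animal or a pool, so p-values measure the spread between these samples.

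Cytosolic ribosomes consist of ribosomal RNA and a fixed set of proteins that are made in near-equal numbers. Their mRNAs are among the most abundant in most cells and carry a 5′ terminal oligopyrimidine (TOP) tract, through which mTOR signalling sets how strongly they are translated. In the striatum, as in other neural tissue, ribosomal protein mRNA is present in neuronal cell bodies and processes and in glia. In tissue RNA of this kind, fewer cells of a type and less RNA per cell cannot be told apart.

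The striatal neuron markers Penk, Drd2 and Ppp1r1b had median log2 intensities of 12.00, 11.20 and 14.49 over the 78 arrays. The 3 methamphetamine arrays of day 1 stood apart. Their mean log2 deviation over 10 hippocampal marker genes was 1.57, 1.24 and 1.97, while no other array exceeded 0.25, and 8 of the 10 genes were higher past the threshold than in saline arrays of that day. Over 12 markers of medium spiny neurons, the main neuron type of the striatum, their deviations were -0.94, -0.59 and -2.95, against -0.79 to 0.25 on the other arrays, and 10 of the 12 were lower past the threshold. Over 9 markers of cortical excitatory neurons the same arrays had 0.87, 0.68 and 0.97, against -0.68 to 0.74 elsewhere, and 1 of the 9 was higher past the threshold. Replicate 2 thus lay inside the range of the other arrays for the cortical and medium spiny neuron markers. Over 10 astrocyte markers the deviations were 0.31, 0.24 and 0.25, against -0.20 to 0.30 on the other arrays, and 2 of the 10 were higher past the threshold. Over 8 oligodendrocyte markers they were -0.38, -0.07 and -0.60, against -0.41 to 0.26, and 1 of the 8 was lower. Among the other arrays, replicate 2 of saline day 15 set the end of several ranges. It had -0.79 for medium spiny neuron, 0.25 for hippocampal, 0.74 for cortical and -0.41 for oligodendrocyte markers. This array stayed in the saline group of the withdrawal comparisons, in which 0 ribosomal protein genes passed when it was left out. No marker intensity was at 0 on any array. The counts and the named values that rest most on the methamphetamine arrays of day 1 are also given without them, in a fit in which day 1 is left out of every treatment average (called without day 1 below).

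On the array, most ribosomal protein genes were among the brightest transcripts. Intensities are log2 values after quantile normalization, and for each gene the probe with the highest mean was used. A total of 47 of the 64 genes lay on average above the 90th percentile of their array. The median level over the 58 genes that could be tested was 13.29 on this log2 scale. The highest mean was that of Rpl41 (15.72), a very small basic large-subunit protein. Rplp1 (15.63), Rps29 (15.62) and Rpl23 (15.62) came next. Rpl41 ranged only between 15.64 and 15.85 over the 78 arrays, and its values lie near the top of the scale, where differences can be compressed. The 6 genes that stayed under the filter on dim probes were Rpl14, Rpl17, Rpl39l, Rpl6, Rps20 and Rps23, with mean log2 intensities of 6.84, 6.54, 6.57, 6.83, 6.56 and 6.61. A level on this array reflects the probe as well as the transcript, so levels of different genes are not ranked further. Ribosomal protein genes also have many processed pseudogenes, and probe sequences were not used here, so signal from near-identical copies is not separated.

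Promoter sequences were taken from a table of RefSeq promoters (GRCm38.p6). That table, though not RefSeq itself, lacked some of the genes and held 53 of the 64. Windows from 60 bases before the transcription start to 30 bases after it are shown for Rpl24, the gene with a change past the threshold, for Rps13, the next closest, and for Rpl27a, Rps10 and Rps21, which followed the family average closely between arrays. Capitals mark runs of 8 or more consecutive C or T on the transcript strand and the letters CCGGAA, the core of ETS-family binding motifs, on either strand.
Rpl24: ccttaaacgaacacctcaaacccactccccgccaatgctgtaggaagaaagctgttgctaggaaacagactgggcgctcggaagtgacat
Rps13: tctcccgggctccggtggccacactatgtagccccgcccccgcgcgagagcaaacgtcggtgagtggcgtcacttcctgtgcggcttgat
Rpl27a: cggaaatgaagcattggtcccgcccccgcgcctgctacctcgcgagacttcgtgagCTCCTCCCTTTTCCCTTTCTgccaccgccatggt
Rps10: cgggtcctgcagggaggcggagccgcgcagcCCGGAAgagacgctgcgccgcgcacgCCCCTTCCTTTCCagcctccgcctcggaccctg
Rps21: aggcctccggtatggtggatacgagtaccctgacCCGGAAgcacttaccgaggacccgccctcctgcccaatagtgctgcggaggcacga
They lie at chr16:55966215-55966304 on the plus strand for Rpl24, chr7:116334161-116334250 on the minus strand for Rps13, chr7:109519135-109519224 on the plus strand for Rpl27a, chr17:27635215-27635304 on the minus strand for Rps10 and chr2:180257319-180257408 on the plus strand for Rps21.

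A pyrimidine run of at least 8 bases lay between 25 bases before and 30 bases after the first listed start in 26 of the 53 ribosomal protein genes (49.1%). The same run was present in 20.7% of the other 26972 genes of the table and in 24.6% of 69 mitochondrial ribosomal protein genes. CCGGAA on either strand lay within the 300 bases of the promoter table in 25 of the 53 genes (47.2%), against 15.2% of the other genes and 56.5% of the mitochondrial ribosomal protein genes. The reverse complement, TTCCGG, begins with pyrimidines and can overlap a run. Rpl27a and Rps10 hold a run at the start, while the windows of Rpl24 and Rps13 hold neither motif. Rps15 and Rps19, also among the genes closest to the family average but not shown, held neither motif in the ranges searched. The windows shown are therefore examples, not a comparison between kinds of genes. Where a gene has several starts, only the first listed was searched.

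The first question was whether ribosomal protein mRNA changed with either drug during treatment or withdrawal. No gene of the family passed the threshold in any of the 4 comparisons of a drug with saline (limma, Benjamini-Hochberg adjusted p under 0.05 over 12371 genes, 12 arrays against 12). Under methamphetamine treatment, 0 of 58 genes passed, where 4.63% of all genes tested did. An unadjusted p under 0.05 was found for 6 of the 58 (10.3%), against 18% of all genes. Without day 1, 0 of 58 passed and 0.34% of all genes did, and 1 of the 58 had an unadjusted p under 0.05 (1.72%, against 9.07% of all genes). With arrays centred on their median only, in place of quantile normalization, that count was also 1, against 16.5% of all genes. Under heroin treatment 0 of 58 passed (1.66% of all genes), and 2 had an unadjusted p under 0.05 (3.45%, against 13.1%). This count depended on the scaling: with median centring 13 of the 58 had an unadjusted p under 0.05 (22.4%, against 13.6% of all genes), all 13 of them higher, and 0 passed. Without day 1 it was 4 (6.9%, against 11.2%). In withdrawal 0 of 58 passed for methamphetamine (0.0243% of all genes) and 0 of 58 for heroin (0.0485%), and none had an unadjusted p under 0.05 in either, against 5.57% and 10.9% of all genes.

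The intervals were narrow on the quantile-normalized values, to which the counts of intervals given here belong. In the methamphetamine treatment comparison, all 58 of the 95% confidence intervals lay within a 1.2-fold change in either direction, and in the heroin treatment comparison 57 did, with Rps4l outside. All 58 did in each withdrawal comparison. The median standard error was 0.033 on the log2 scale. The median change of the 58 genes was -0.027 for methamphetamine treatment, with 37 genes below 0, against 0.0014 over all genes tested. It was 0.0054 for heroin treatment, where 32 genes were above 0, and 0.045 with median centring. In withdrawal the medians were -0.00045 for methamphetamine and -0.0025 for heroin. The methamphetamine treatment median depended on the scaling: it was -0.0046 with arrays centred on their median only. Its sign differed with the authors' deposited log2 values, where it was 0.00045. In those values the median spread of the 58 genes over arrays was 0.126 of that used here. Without day 1 the median change was -0.018 for methamphetamine and -0.0068 for heroin. Both drugs were compared with the same saline arrays.

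**Figure D1:**
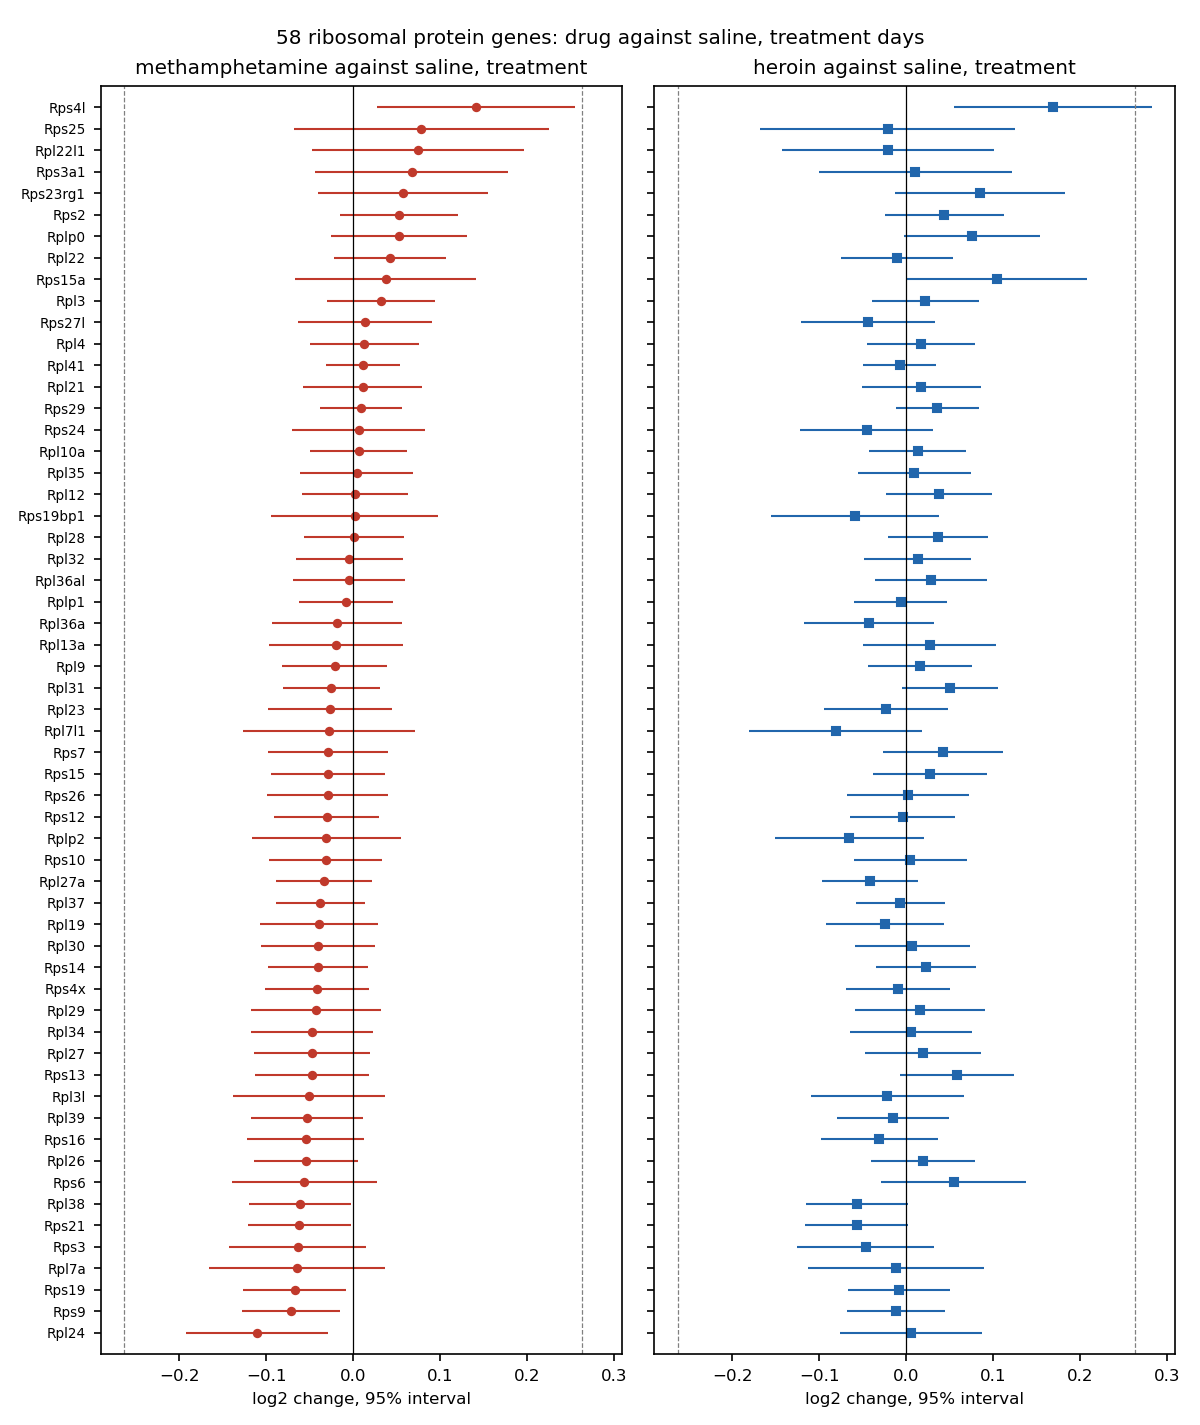
Log2 change of each of the 58 ribosomal protein genes, methamphetamine against saline (left) and heroin against saline (right) over the treatment days; points are estimates from 12 arrays against 12, lines are 95% intervals, and the dashed lines mark a 1.2-fold change. All intervals but that of Rps4l under heroin stay between the dashed lines.

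Within the methamphetamine treatment comparison, the genes with the smallest p-values were Rpl24, Rps9 and Rps4l. Rpl24, a large-subunit protein whose mutation gives the Belly spot and tail mouse, ranged between 11.73 and 12.23 with a median of 12.08 on the 12 methamphetamine arrays, against 12.06 to 12.26 with a median of 12.19 on the 12 saline arrays. The groups overlapped. The change was -0.11 ± 0.04 (SE, limma adjusted p = 0.112). Without the methamphetamine arrays of day 1 and that day it was -0.02 ± 0.05 (limma adjusted p = 0.956). Leaving out 1 array brought it past the threshold in 1 of 78 fits, that without naive replicate 4 (-0.12, limma adjusted p = 0.0373). Rps9, a small-subunit protein, averaged 13.82 ± 0.13 under methamphetamine and 13.90 ± 0.10 under saline (SD, n = 12 each), a change of -0.07 ± 0.03 (SE, limma adjusted p = 0.147), and -0.04 ± 0.04 without day 1 (limma adjusted p = 0.813).

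Rps4l, on chromosome 6, is named as related to the X-linked Rps4x and had the highest estimate under both drugs. Its log2 intensity averaged 8.999 ± 0.21 in methamphetamine arrays, 9.02 ± 0.23 in heroin arrays and 8.86 ± 0.14 in saline arrays (SD, n = 12 each). The change was 0.14 ± 0.06 for methamphetamine and 0.17 ± 0.06 for heroin (SE), with limma adjusted p = 0.154 and 0.121, so neither passed. Without day 1 it was 0.07 ± 0.08 for methamphetamine and 0.19 ± 0.08 for heroin (limma adjusted p = 0.865 and 0.3). The range was 8.52 to 9.30 (median 8.99) under methamphetamine, 8.65 to 9.495 (median 8.97) under heroin and 8.59 to 9.06 (median 8.87) under saline, so the groups overlapped. Rps4x itself, the small-subunit protein, was at 13.63 ± 0.13 under methamphetamine, 13.66 ± 0.09 under heroin and 13.67 ± 0.06 under saline (SD, n = 12 each). Under heroin treatment Rps15a, also of the small subunit, was next, with 10.40 ± 0.13 in heroin arrays and 10.30 ± 0.13 in saline arrays (SD, n = 12 each), a change of 0.10 ± 0.05 (SE, limma adjusted p = 0.379). Rpl38, a large-subunit protein, followed with -0.06 ± 0.03 (SE, limma adjusted p = 0.404), and its second probe went the other way at 0.10 ± 0.04.

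Genes with roles outside or at the edge of the ribosome's core were followed whatever their values. In the stalk, which recruits translation factors, Rplp0 had estimates of 0.05 ± 0.04 under methamphetamine and 0.08 ± 0.04 under heroin, Rplp1 of -0.0079 ± 0.03 and -0.0066 ± 0.03, and Rplp2 of -0.03 ± 0.04 and -0.07 ± 0.04 (log2 difference from saline, SE, over the treatment days). None of them passed. The Rplp0 probe was dim for this family, with a mean log2 intensity of 8.30, against 15.63 for Rplp1 and 13.90 for Rplp2. Rps6, the substrate of the S6 kinases that is widely used as a readout of neuronal activity through its phosphorylation, had estimates of -0.06 ± 0.04 under methamphetamine and 0.05 ± 0.04 under heroin. These arrays measure its mRNA and say nothing of phosphorylation.

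Rps19, which is mutated in Diamond-Blackfan anaemia, had estimates of -0.07 ± 0.03 under methamphetamine and -0.0086 ± 0.03 under heroin. Rps14, the small-subunit gene lost in the 5q deletion syndrome, had estimates of -0.04 ± 0.03 and 0.02 ± 0.03. For Rps3, which lines the mRNA entry channel, the values were -0.06 ± 0.04 and -0.05 ± 0.04. Rpl26, which binds p53 mRNA, gave -0.05 ± 0.03 and 0.02 ± 0.03, Rpl13a, a regulator of inflammatory mRNA translation, -0.02 ± 0.04 and 0.03 ± 0.04, and Rpl39, which lines the exit tunnel, -0.05 ± 0.03 and -0.02 ± 0.03. None of these 6 passed under either drug. Among the paralogs, Rpl22 and Rpl22l1, which replace each other in the ribosome, had estimates of 0.04 ± 0.03 and 0.07 ± 0.06 under methamphetamine and of -0.01 ± 0.03 and -0.02 ± 0.06 under heroin. Rpl3l, known from striated muscle, had estimates of -0.05 ± 0.04 and -0.02 ± 0.04 on a probe with a mean log2 intensity of 7.56. Rps27l, a p53 target, had estimates of 0.01 ± 0.04 and -0.04 ± 0.04, and Rpl7l1 of -0.03 ± 0.05 and -0.08 ± 0.05. None of these 5 passed. Without day 1 these genes and Rps4x, 16 in all, had estimates between -0.06 (Rps6) and 0.07 (Rpl22l1) under methamphetamine and between -0.11 (Rpl7l1) and 0.08 (Rplp0) under heroin, and 0 of the 16 passed under either drug.

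In withdrawal, the smallest p-values under methamphetamine belonged to Rps2 (0.07 ± 0.03), Rplp0 (-0.07 ± 0.04) and Rps23rg1 (-0.09 ± 0.05), and the lowest limma adjusted p was 0.891. Under heroin they belonged to Rpl32 (-0.06 ± 0.03), Rps4x (0.05 ± 0.03) and Rps6 (-0.07 ± 0.04), and the lowest limma adjusted p was 0.502. The difference between phases was tested by subtracting the effect in withdrawal from the effect in treatment. It passed for 0 of 58 genes with methamphetamine (0.356% of all genes) and 0 of 58 with heroin (0.0566%). An unadjusted p under 0.05 was found for 5 and 3 genes, against 11.9% and 10.2% of all genes. The methamphetamine differences with the smallest p were those of Rpl24 (-0.14 ± 0.06), Rplp0 (0.13 ± 0.05) and Rps9 (-0.09 ± 0.04), and the heroin ones those of Rps15a (0.19 ± 0.07), Rplp0 (0.14 ± 0.05) and Rps6 (0.13 ± 0.06). The lowest limma adjusted p was 0.294 for methamphetamine and 0.347 for heroin. Without day 1 the methamphetamine differences were -0.05 ± 0.07 for Rpl24, 0.12 ± 0.06 for Rplp0 and -0.05 ± 0.04 for Rps9. The lowest limma adjusted p was then 0.969, and 0.00808% of all genes passed.

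The next comparison set the drugs against each other. In treatment, 0 of 58 genes passed between methamphetamine and heroin, where 3.48% of all genes did. All 8 genes with an unadjusted p under 0.05 (13.8%) were lower under methamphetamine, against 9.17% of all genes lower at that level and 18.2% in either direction. The median of the 58 was -0.027, with 44 below 0, and the median of all genes was -0.0018. Without day 1 the median of the 58 was -0.014, 2 of the 58 had an unadjusted p under 0.05 (3.45%, against 6.69% of all genes) and 0.0728% of all genes passed. With median centring that count was 12 (20.7%, against 15.2%), all 12 lower. On the quantile-normalized values, all 58 of the 95% intervals lay within 1.2-fold. Rps13, a small-subunit protein, came closest, with a range of 12.35 to 12.83 and a median of 12.58 on the methamphetamine arrays, against 12.43 to 12.88 with a median of 12.70 on the heroin arrays. The groups overlapped. The difference was -0.11 ± 0.03 (SE, limma adjusted p = 0.0578).

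That value for Rps13 came from the brighter of its 2 probes. The second probe, with a mean log2 intensity of 8.55 in place of 12.62, differed by 0.12 ± 0.04 in the opposite direction. Without day 1 the brighter probe differed by -0.08 ± 0.04 (limma adjusted p = 0.74). With arrays centred on their median only, the first probe's difference was -0.12 ± 0.03 and passed (limma adjusted p = 0.0221). It also passed in 7 of the 78 fits that left out 1 array, with its lowest limma adjusted p, 0.00537, without replicate 2 of methamphetamine day 1. The other six were without replicate 2 of heroin day 1, replicate 2 of heroin day 13, replicates 2 and 3 of saline day 15, and replicates 1 and 3 of saline day 18, with limma adjusted p between 0.0411 and 0.0486. Next were Rpl24 (-0.12 ± 0.04, limma adjusted p = 0.102, and 0.0333 without naive replicate 4) and Rpl31, a large-subunit protein near the exit of the tunnel (-0.07 ± 0.03, limma adjusted p = 0.12). Rps6 differed by -0.11 ± 0.04 (limma adjusted p = 0.129). Without day 1 the differences were -0.04 ± 0.05 for Rpl24, -0.05 ± 0.04 for Rpl31 and -0.10 ± 0.06 for Rps6, and none passed. In withdrawal 0 of 58 passed between the drugs (0.00808% of all genes) and 1, Rpl27a, had an unadjusted p under 0.05 (6.73% of all genes), at 0.06 ± 0.03.

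Single days were compared with 3 arrays in each group and a residual spread shared by the whole fit. For methamphetamine 1 of 464 pairs of gene and day passed, where 0.916% of all such pairs did (907, of which 894 were on day 1). For heroin 0 of 464 passed (0.172% of all pairs). On methamphetamine day 1, 1 of 58 genes was lower past the threshold, where 3.86% of all genes were lower and 7.23% passed in either direction. That gene was Rpl24. Its log2 intensity was 11.73, 11.97 and 11.76 on the methamphetamine arrays of day 1, against 12.10, 12.18 and 12.24 on the saline arrays of day 1. All 3 methamphetamine arrays lay below all 3 saline arrays. Averages were 11.82 ± 0.13 under methamphetamine and 12.17 ± 0.07 under saline (SD, n = 3 each), and the change was -0.38 ± 0.11 (SE, limma adjusted p = 0.0211). On no other methamphetamine day did Rpl24 pass. On day 3 it was 12.09, 12.00 and 12.17 on methamphetamine arrays, against 12.20, 12.13 and 12.26 on saline arrays, and those values overlap.

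These are the 3 arrays whose hippocampal marker levels lay above those of every other array, and whose cortical and medium spiny neuron marker levels lay outside the range of the others in replicates 1 and 3. The part of this, and of the astrocyte and oligodendrocyte marker levels given above, in the Rpl24 value was not tested. Heroin arrays of the same day had Rpl24 at 12.14, 12.09 and 12.14. No slide held both a methamphetamine and a saline array of day 1, so no within-slide value exists. The 60 arrays of slides 4 to 13 are called the larger lot here, and the 18 of slides 1 to 3 the smaller lot. Neither the sample labels nor the table headers name a lot. The call did not hold with the larger lot alone (-0.39 ± 0.14, limma adjusted p = 0.135), with array position as a term (-0.37 ± 0.12, limma adjusted p = 0.0514), with median centring (-0.28 ± 0.12, limma adjusted p = 0.19), or in a fit of the methamphetamine and saline groups alone (-0.36 ± 0.12, limma adjusted p = 0.0746). With the authors' deposited log2 values it was -0.0047 ± 0.02 (limma adjusted p = 0.998). In those values the median spread of the 58 genes over arrays was 0.126 of that used here, and that of all genes 0.161. Leaving out 1 array ended the call in 4 of 78 fits. These were without replicate 1 (-0.33, limma adjusted p = 0.0896) or replicate 3 (-0.37, limma adjusted p = 0.112) of methamphetamine day 1, without replicate 3 of saline day 1 (-0.33, limma adjusted p = 0.0852), and without naive replicate 2 (-0.33, limma adjusted p = 0.0581).

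**Figure D2:**
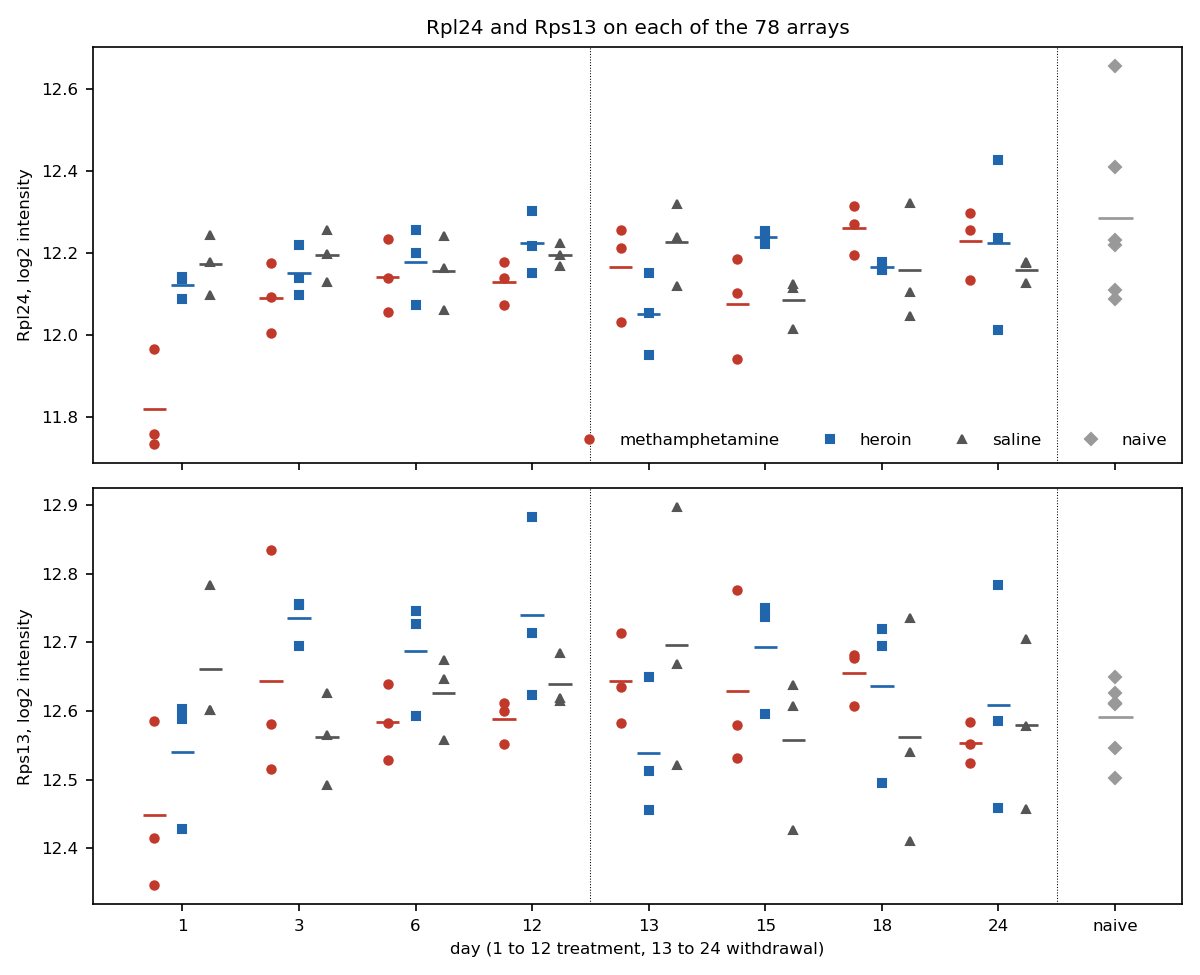
Log2 intensity of Rpl24 (top) and Rps13 (bottom) on each of the 78 arrays by day, with methamphetamine, heroin and saline side by side, naive arrays at the right, and bars at the group means. For Rpl24 the 3 methamphetamine arrays of day 1 lie at 11.73 to 11.97, below the saline arrays of that day, and the naive arrays reach 12.66.

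On day 1 of methamphetamine, 9 of the 58 genes, Rpl24 included, had an unadjusted p under 0.05, against 19.5% of all genes, and 6 of the 9 were lower. Rpl7a, a large-subunit protein, differed by -0.38 ± 0.13 (limma adjusted p = 0.0746), Rpl4 by 0.23 ± 0.08 (limma adjusted p = 0.0808) and Rps4l by 0.36 ± 0.15 (limma adjusted p = 0.158). With 1 array left out, Rpl7a passed without replicate 1 of saline day 1 (-0.51, limma adjusted p = 0.018) and without naive replicate 3 (-0.41, limma adjusted p = 0.0445), and Rps4l passed without replicate 1 of saline day 15 (0.44, limma adjusted p = 0.0391). Rpl4 also passed with slide as a random block (0.23 ± 0.07, limma adjusted p = 0.0367), and Rps19 without a slide term (-0.22 ± 0.07, limma adjusted p = 0.0434). Over all 8 days an unadjusted p under 0.05 was reached by 19 pairs with methamphetamine (4.09%, against 6.49% of all pairs) and by 18 with heroin (3.88%, against 6.34%). The highest estimate was that of Rps25 on day 24, the last methamphetamine withdrawal point, with 12.82, 12.55 and 12.58 on methamphetamine arrays against 12.36, 12.06 and 12.72 on saline arrays. The groups overlapped. The averages were 12.65 ± 0.15 under methamphetamine and 12.38 ± 0.33 under saline (SD, n = 3 each), and the change with slide in the model, which differs from that of these averages, was 0.57 ± 0.19 (SE, limma adjusted p = 0.9999). Single-day intervals were wide: between 26 and 43 of the 58 lay within 1.2-fold on a methamphetamine day and between 27 and 40 on a heroin day.

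The first withdrawal day after heroin, labelled day 13, had the lowest median of the 16 single-day comparisons. It was -0.08 over the 58 genes, with 49 below 0, against -0.011 over all genes. None of the 58 passed, and 0% of all genes did. All 8 genes with an unadjusted p under 0.05 (13.8%) were lower, against 4.28% of all genes lower at that level and 7.86% in either direction. They were Rpl21, Rpl31, Rps6, Rpl7a, Rpl32, Rpl24, Rpl22l1 and Rpl34, of which Rpl21 (-0.24 ± 0.09) had the lowest limma adjusted p, 0.513. The Rpl21 probe was dim for this family, with a mean log2 intensity of 8.33. Per array, the mean of the 58 genes after centring each on its median over all arrays was -0.04, -0.1 and -0.06 in the heroin arrays of that day, against 0.04, -0.0003 and 0.09 in the saline arrays. All 3 heroin arrays lay below the saline arrays. These means are not adjusted for slide, and no slide held both a heroin and a saline array of that day. The saline array at 0.09 was on slide 6, whose arrays all lay between 0.015 and 0.09. The saline mean of that day, 0.04, was also the highest of the 8 saline days. Methamphetamine, set against the same saline arrays, had its lowest single-day median on that day too, -0.04, with 45 of the 58 genes below 0, against -0.0058 over all genes. Medians ranged between -0.04 and 0.03 over the methamphetamine days and between -0.08 and 0.06 over the heroin days. Both signs occurred under heroin in treatment and under both drugs in withdrawal. On the methamphetamine treatment days the only median above 0 was that of day 6, at 0.00014, against 0.0077 over all genes.

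**Figure D3:**
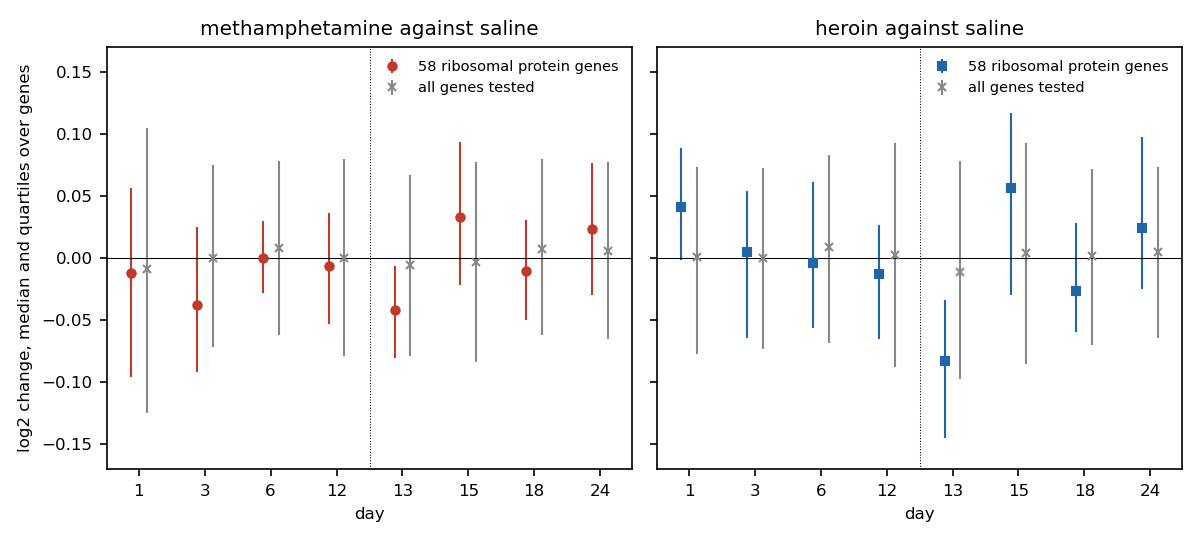
Median log2 change against saline of the 58 ribosomal protein genes (coloured) and of all genes tested (grey crosses) on each day, for methamphetamine (left) and heroin (right); lines join the quartiles over genes, which are not replicates. The heroin median of day 13 is lowest at -0.08.

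Tests of whether the drug effect differed between the 8 days passed for 0 of 58 genes with methamphetamine (3.4% of all genes) and 0 of 58 with heroin (0.0162%) by moderated F in limma. Unadjusted p under 0.05 was reached by 1 gene with methamphetamine, Rpl24, against 13.8% of all genes, and by 3 with heroin, Rpl31, Rpl22l1 and Rpl27, against 8.69%. Without day 1 the methamphetamine test passed for 2 of all 12371 genes and 0 of the 58, of which 0 had an unadjusted p under 0.05. For saline alone over the 8 days 0 of 58 passed (0.00808% of all genes), and Rpl30, Rps26 and Rps16 had an unadjusted p under 0.05, against 9.49%.

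Saline mice of the treatment days were also set against the mice labelled naive. None of the 58 passed (0.0404% of all genes), and 8 had an unadjusted p under 0.05 (13.8%, against 7.3% of all genes), all lower in saline, where 3.85% of all genes were. It was 4 with median centring (6.9%, against 7.74%) and 3 without day 1 (5.17%, against 8.71%). The median was -0.022, with 40 below 0, and 0.012 with median centring. Rpl27, a large-subunit protein, averaged 13.19 ± 0.12 on 12 saline arrays and 13.26 ± 0.12 on 6 naive arrays (SD), a slide-adjusted difference of -0.14 ± 0.04 (limma adjusted p = 0.457). Rpl24 differed by -0.15 ± 0.05 and Rpl7a by -0.18 ± 0.06. Rpl24 reached 12.66 and 12.41 on 2 naive arrays and lay between 12.09 and 12.23 on the other four. All 6 naive arrays sat at the last position of their slide, as did the 3 saline arrays of day 24 and no other whole group. With position as a term the median was 0.08.

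Per array, the mean of the 58 genes varied little, with an SD of 0.037 over the 78 arrays and of 0.022 after groups and slides were fitted. In treatment it ranged from -0.11 to 0.04 under methamphetamine, from -0.04 to 0.07 under heroin and from -0.09 to 0.02 under saline. The lowest 3 of the methamphetamine values, -0.11, -0.08 and -0.03, were from day 1. In withdrawal it ranged from -0.03 to 0.05 under methamphetamine, from -0.1 to 0.06 under heroin and from -0.05 to 0.09 under saline, and naive arrays lay between -0.0056 and 0.07. The groups overlapped throughout. With arrays centred on their median only, the SD was 0.133.

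**Figure D4:**
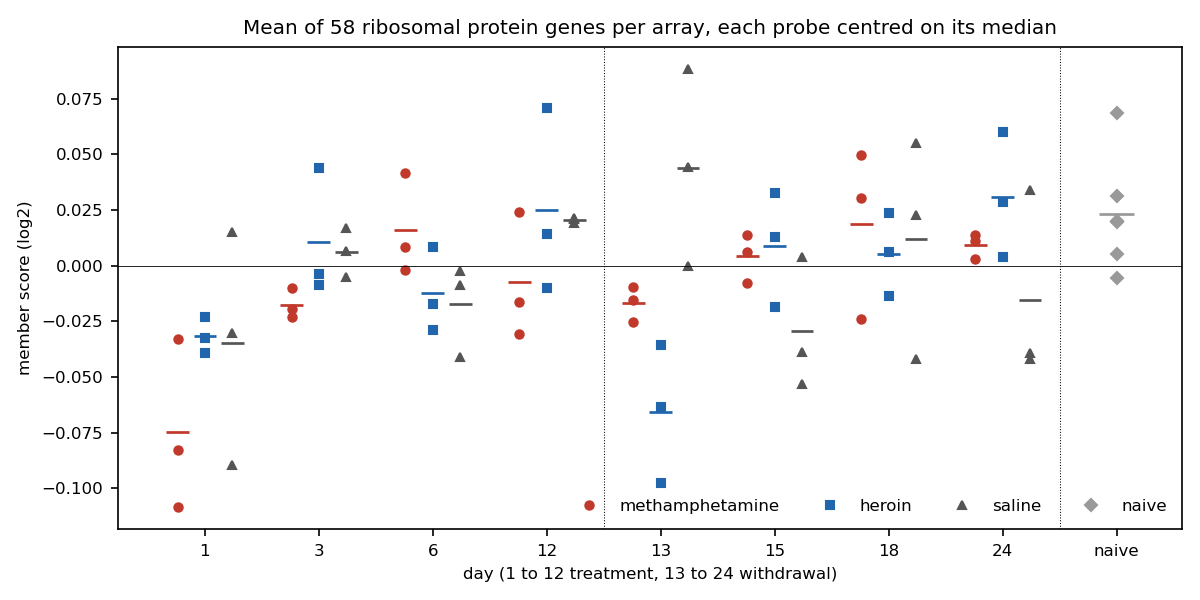
Mean of the 58 ribosomal protein genes on each array, in log2 units after centring each probe on its median over the 78 arrays, by day and drug, with naive arrays at the right and bars at group means. Values stay between -0.11 and 0.09.

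After groups and slides were removed, pairs of the genes were mostly only weakly correlated. The median correlation over the 1653 pairs was 0.064, with 60.7% above 0, across 78 arrays whose residuals share slides and normalization. It was 0.282 with median centring. Pairs within the small subunit had a median of 0.135, pairs within the large subunit 0.065 and pairs across the subunits 0.099. The residual spread of the family was low, with a median SD of 0.075, against 0.106 over all genes. The family is also brighter than most genes (47 of the 64 above the 90th percentile), and spread was not compared at equal intensity. The median correlation of a gene with the mean of the others was 0.243. For the 12313 other genes, the median correlation with the mean of the 58 was 0.0169. The correlation was above 0.3 for 23 of the 58, against 9.28% of the other genes, and below 0 for 13 of the 58. These correlations were not compared at equal intensity either. The genes closest to the mean of the others were Rpl27a (correlation 0.57), Rps15 (0.57), Rps21 (0.55), Rps10 (0.51) and Rps19 (0.49). Farthest were Rpl41 (-0.44), Rps4l (-0.27), Rpl22 (-0.24), Rps15a (-0.19) and Rps23rg1 (-0.18). Rpl41 is the brightest of the family and Rps23rg1 the dimmest of the 58. The most correlated pairs were Rpl22l1 with Rps3a1 (0.687) and Rpl24 with Rpl7a (0.658).

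The slide an array was on accounted for much of the variation. Its median share of the variance over arrays was 51.8% in the 58 genes and 40.1% over all 12371. The shares of Rps3a1, a small-subunit protein, and Rpl22l1, the Rpl22 paralog, were 95.4% and 93.9%. Slide means of Rps3a1 ranged from 9.88 to 12.23 and those of Rpl22l1 from 6.91 to 9.26, a span of 2.35 on the log2 scale for each. The smaller lot (slides 1 to 3, 18 arrays) averaged 10.73 ± 0.69 for Rps3a1 and 7.58 ± 0.61 for Rpl22l1, against 11.62 ± 0.37 and 8.34 ± 0.53 in the larger lot (60 arrays, SD). Each gene has a single probe here. With slide in the model, their methamphetamine treatment changes were 0.07 ± 0.06 for both, and neither passed.

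**Figure D5:**
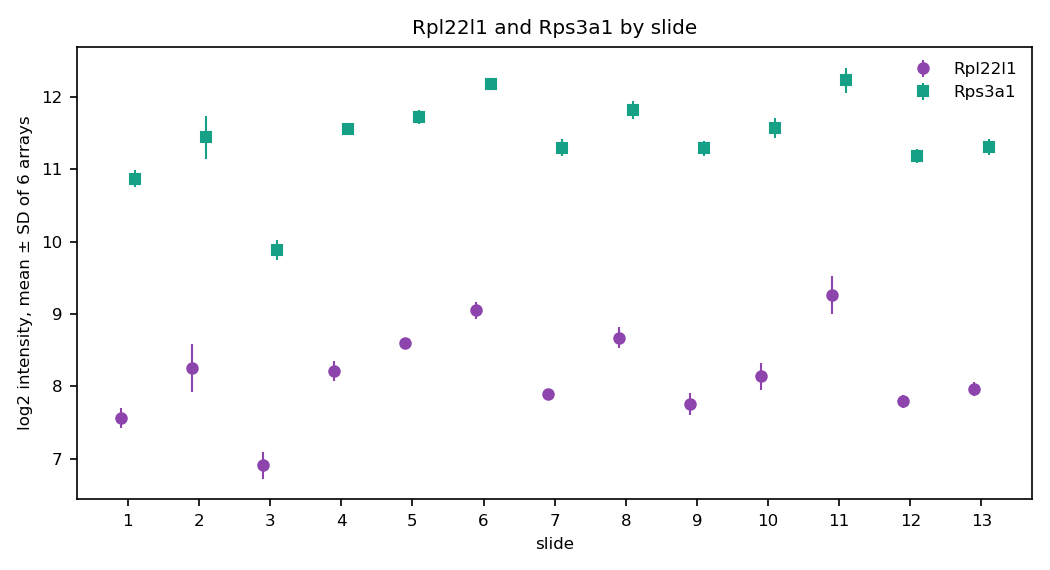
Mean log2 intensity of Rpl22l1 and Rps3a1 on each of the 13 slides, with the SD of the 6 arrays of a slide as bars. The slide means of both genes span 2.35 log2 units, with the lowest on slide 3 and the highest on slide 11.

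Where a gene had several probes past the filter, the probes often disagreed. Of 17 such genes, the lowest residual correlation between probes ran from -0.528 (Rpl27a, with 4 probes) to 0.5 (Rps9). The dimmer probe of Rpl7l1 had estimates of 0.11 ± 0.04 under both drugs in treatment, while the brighter probe had estimates of -0.03 ± 0.05 under methamphetamine and -0.08 ± 0.05 under heroin. None of these passed among all probes.

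Genes that act with the ribosome were described from lists of the pathway. Rpsa, a cytosolic small-subunit protein whose symbol falls outside the rule, had estimates of -0.09 ± 0.05 under methamphetamine and 0.0093 ± 0.05 under heroin in treatment, and did not pass. Of 15 elongation factors and other TOP mRNAs tested, 0 passed in the treatment or withdrawal comparisons, and none had an unadjusted p under 0.05 against saline in treatment. Of 18 initiation factors, 1 rose under each drug in treatment (5.56%, against 2.49% of all genes higher under methamphetamine and 1% under heroin). It was Eif1a, which helps to select the start codon, with changes of 0.12 ± 0.03 under methamphetamine (limma adjusted p = 0.0192) and 0.15 ± 0.03 under heroin (limma adjusted p = 0.00543). Eif5, which triggers GTP hydrolysis at the start codon, was lower under methamphetamine than heroin (-0.18 ± 0.03, limma adjusted p = 0.000396). That was 1 of 18 (5.56%), where 1.55% of all genes were lower past the threshold and 3.48% passed in either direction. An unadjusted p under 0.05 against saline was found for 2 of the 18 under methamphetamine (11.1%, against 18% of all genes) and for 4 under heroin (22.2%, against 13.1%).

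Of 29 ribosome biogenesis genes, 1 rose under each drug (3.45%, against the same 2.49% and 1% of all genes higher). Under methamphetamine it was Bop1, needed for large-subunit rRNA maturation (0.16 ± 0.05, limma adjusted p = 0.029), and under heroin Nhp2, a box H/ACA snoRNP protein (0.11 ± 0.03, limma adjusted p = 0.049). An unadjusted p under 0.05 was found for 8 of the 29 under methamphetamine (27.6%, against 18% of all genes) and for 6 under heroin (20.7%, against 13.1%). Of 14 mTOR pathway genes, 0 passed against saline, with 0 and 3 (21.4%) at an unadjusted p under 0.05 for methamphetamine and heroin treatment, against the same 18% and 13.1% of all genes. Tsc1, an inhibitor of mTOR complex 1, was lower under methamphetamine than heroin (-0.17 ± 0.04, limma adjusted p = 0.00549). That was 1 of 14 (7.14%, against 1.55% of all genes lower and 3.48% in either direction). Of 73 mitochondrial ribosomal protein genes, Mrpl51 rose under methamphetamine against saline (0.12 ± 0.04, limma adjusted p = 0.0482), which is 1.37% of the list, against 2.49% of all genes higher. Mrpl51 was also higher under methamphetamine than heroin (0.20 ± 0.04, limma adjusted p = 0.00074), while Mrpl47 was lower (-0.10 ± 0.03, limma adjusted p = 0.0474). Each was 1.37% of the list, against 1.92% of all genes higher and 1.55% lower.

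Most of these calls did not hold without day 1. Of the 9, only that of Eif1a under heroin did (0.20 ± 0.04, limma adjusted p = 0.00471). The estimate of Eif1a under methamphetamine was then 0.14 ± 0.04 (limma adjusted p = 0.127), that of Bop1 0.15 ± 0.06 (0.383), that of Nhp2 0.09 ± 0.04 (0.345) and that of Mrpl51 against saline 0.11 ± 0.05 (0.544). Against heroin, Eif5 differed by -0.17 ± 0.04 (limma adjusted p = 0.174), Tsc1 by -0.17 ± 0.05 (0.327), Mrpl51 by 0.23 ± 0.05 (0.0646) and Mrpl47 by -0.10 ± 0.04 (0.576). All 9 estimates kept their sign. That fit has fewer arrays and larger standard errors (0.043 in place of 0.032 for Eif5). Fewer of all genes passed in it (0.0728% in place of 3.48% for methamphetamine against heroin), so a lost call does not show a changed estimate. With 1 array left out, Nhp2 passed in 19 of 78 fits, Mrpl51 against saline in 33, Mrpl47 in 42, Bop1 in 69 and Eif1a under methamphetamine in 75, and the other four calls held in all 78. The medians of these lists in treatment lay between -0.014 and 0.031, against medians of all genes between -0.0018 and 0.0014.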

How the data were processed

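Striatal RNA was measured on Illumina mouse arrays, 78 in all, each with biotin-labelled cRNA per the labels' protocols. The authors deposited a table of non-normalized probe intensities and, per the file headers, a second table of processed values, which the values show to be on a log2 scale. The software behind the deposited log2 values and intensities is not given in the sources used here. The intensities were used as deposited, with array medians of 95 to 184. They carry no detection p-values, so no background correction was made. Values were log2 transformed and quantile normalized. A probe was kept where it lay above its array's median throughout at least 1 of the 25 groups (23810 of 45281 probes), and each gene took its brightest probe (12371 genes). Of all probes, 34885 had 1 symbol, 18 several and 10378 none in the platform annotation.

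A model of 25 group means and 13 slides (limma 3.58.1, R 4.3.3) left 41 residual degrees of freedom. Two-sided p-values were adjusted by Benjamini-Hochberg across the 12371 genes, and an adjusted p under 0.05 passed. The model was run on simulated data with independent normal noise and changes added to 200 genes under methamphetamine treatment. That simulation held no unusual arrays and no single-day comparison, so it says nothing of those. The number of arrays limits the precision. Genes named were those past the threshold or, where none passed a phase comparison, the 3 with the smallest p, the 5 most and 5 least like the family mean, genes whose probes differed most and genes of listed roles. Others, such as Rps3a1, Rps25 and genes of single days that did not pass, were chosen after their values were seen. The members, lists and tests were chosen with earlier results of these data known, and quantile normalization before the log2 step was added as an alternative after seeing the data. Genes of 1 array are not replicates of a condition.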

Additional observations from a re-analysis of the deposited data

Results flagged for a closer look

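Among the 6 naive arrays, the log2 intensity of Rpl27 was 13.29, 13.35, 13.30, 13.35, 13.24 and 13.02. The lowest value stood apart from the nearest other by 0.682 of the whole range, above Dixon's 95% critical value for 6 values. Such a test marks about 1 in 20 groups by chance.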

How the results depend on the processing

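In the comparisons over phases, the count of 0 of 58 genes past the threshold held under each alternative run, with 3 exceptions. It was 1 for methamphetamine against heroin in treatment with median centring, 1 in that comparison and 1 for methamphetamine against saline in treatment with the replicate block, and between 0 and 1 in both when 1 array was left out. By single days, the methamphetamine count of 1 became 0 with the deposited log2 values, median centring, array position as a term, the larger lot alone, only the groups compared, and without day 1, and 2 without a slide term or with slide as a random block; it ranged from 0 to 2 with 1 array left out, with 2 without replicate 1 of saline day 1, replicate 1 of saline day 15 or naive replicate 3. Saline over the 8 days gave 1 with the deposited values. The SD of the per-array mean was 0.133 with median centring and 0.0139 with the deposited values, against 0.037, and the median pair correlation was 0.282 with median centring, against 0.064. The causes were not tested. The alternatives for genes of the pathway lists were chosen after seeing the data; of the 10 run on each of their 9 calls, between 2 (Mrpl47) and 9 (Eif1a under heroin and Eif5) kept the call.

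The replicate numbers do not pair the samples: same-numbered arrays of different groups had a median residual correlation of -0.0138, against 0.003 for other numbers, and 31.2% of 828 pairs exceeded 0.1. With the replicate block, Rpl24 passed in treatment against saline (-0.1216, limma adjusted p = 0.0305) and against heroin (-0.1209, limma adjusted p = 0.0378), and its saline against naive difference was 0.002843.

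All estimates that changed sign, in 18 genes outside the fits with 1 array left out, were uncalled, with limma adjusted p of 0.0838 or more. For methamphetamine treatment the deposited values gave Rplp2 0.0008828, Rps6 0.000151, Rpl26 0.000358, Rpl22 -0.00224 and Rpl3l 0.001132, median centring gave Rpl13a 0.01536, and leaving out day 1 gave Rplp2 0.007207, Rpl22 -0.0003004, Rpl3l 0.002227 and Rps27l -0.006631. For heroin treatment median centring gave Rps3 0.00528, Rps19 0.03743, Rpl22 0.02393, Rpl39 0.04313 and Rps4x 0.03459, and leaving out day 1 gave Rpl13a -0.02352, Rpl22 0.02385, Rps4x 0.0005915 and Rpl22l1 0.0506. Without a slide term heroin gave Rplp1 0.001855 and Rpl22l1 0.01901, with only the groups compared Rplp1 0.003724, Rpl39 0.01524 and Rpl22l1 0.01635, in the larger lot Rpl13a -0.0117, and with array position Rps4x 0.0006989. Array position gave saline against naive values of 0.004517 for Rpl27 and 0.2436 for Rpl24. Second probes gave Rpl7l1 0.1136 for methamphetamine and 0.1145 for heroin, Rpl38 0.1011 for heroin, and Rps13 0.1201 for methamphetamine against heroin. With 1 array left out, methamphetamine treatment ranges were -0.02543 to 6.522e-05 for Rplp1, -0.03635 to 0.0008603 for Rpl13a and -0.006581 to 0.04042 for Rps27l. Heroin ranges were -0.0186 to 0.003771 for Rplp1, -0.0197 to 0.007724 for Rps19, -0.001503 to 0.03636 for Rpl26, -0.02796 to 0.01046 for Rpl22, -0.02015 to 0.003444 for Rps4x, -0.05184 to 0.01537 for Rpl22l1 and -0.04847 to 0.005004 for Rpl3l.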
